A study of Homo sapiens with 8 samples.

Results

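The 8 genes described here are the 4 opioid receptor genes, OPRM1, OPRD1, OPRK1 and OPRL1, and the 4 genes for the precursors of the opioid peptides, PENK, PDYN, POMC and PNOC. They were taken by name from the 60286 genes of a single-cell RNA table, and all 8 had a row. The table held 43693 cells of neural cultures derived from the established human embryonic stem cell line H1, so every group shares 1 genetic background. Cells were freed with papain, which the protocol describes for several organoids cut up together, barcoded over multiple rounds, and sequenced as 8 sublibraries. The name of each cell carries 1 of 46 culture tags, and the tag was the sample in every comparison.

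The tags fall into 9 arrangements and 17 groups. The 6 tags of 2DMono and the 6 of 3DMono each split into 2 with the word AcDop, 2 with AcMor and 2 with Vehic. The 12 tags of 2DCocu hold 4 each of AcCoc, AcMor and Vehic, and the 10 of 3DFusi hold 4 of AcCoc, 3 of AcMor and 3 of Vehic. The other 12 tags carry the word Proto and no treatment word: 2DProto2Fjo, 2DProto3Wu and 2DProto4Nic have 2 tags each, and 3DProto1For and 3DProto2Xia have 3 each. The labels name dopamine, cocaine, morphine and untreated cultures but do not spell out the tag words, give no dose or time, and do not say whether tags were separate cultures, so a p-value here measures the spread between tags, which may be technical. A tag held between 317 and 1959 cells and between 3624668 and 58777176 counts. The 8 neuron markers summed to 1806 to 4014 CPM (a tag's counts scaled to 1e6) in every tag, and none of them was below 1 CPM throughout an arrangement. A barcode was shared with a cell of another sublibrary by 4894 cells, and 1396 cells (3.20%) were called doublets and kept.

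The opioid receptors are G protein-coupled receptors that act through inhibitory G proteins, which lower cyclic AMP, open inward-rectifying potassium channels and close calcium channels. OPRM1 encodes the mu receptor, the main target of morphine, OPRD1 the delta receptor, OPRK1 the kappa receptor and OPRL1 the nociceptin receptor. The precursors are cut into peptides by prohormone convertases: PENK gives enkephalins, PDYN dynorphins, POMC beta-endorphin along with ACTH and melanocortins, and PNOC nociceptin. In the striatum PENK and PDYN are known for marking separate kinds of medium spiny neuron.

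A stretch before the start of the gene is shown for 2 receptor genes, because OPRM1 differed between 2-D and 3-D cultures in both arrangement pairs described below, and because OPRL1 lies head to head with RGS19, a regulator of G protein signalling that differed in the same direction in 1 of them. Both come from RefSeq on GRCh38.p14, plus strand, 5′ to 3′. OPRM1 (ENSG00000112038) lies on the plus strand of chromosome 6, from 154010496 to 154246867 in GENCODE on GRCh38. Its window, chr6:154038852-154039101, is the 250 bases before the start RefSeq gives and lies inside the longer GENCODE gene. OPRL1 (ENSG00000125510) lies on the plus strand of chromosome 20, from 64080173 to 64100643, and RGS19 on the minus strand from 64073181 to 64079988. The OPRL1 window, chr20:64079989-64080081, is the 93 bases between the RGS19 gene and the RefSeq start of OPRL1.
OPRM1: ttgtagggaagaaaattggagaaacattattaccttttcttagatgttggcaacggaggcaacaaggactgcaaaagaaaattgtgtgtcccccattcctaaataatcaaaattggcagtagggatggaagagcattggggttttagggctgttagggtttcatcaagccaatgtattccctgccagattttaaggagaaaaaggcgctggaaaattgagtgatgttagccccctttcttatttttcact
OPRL1: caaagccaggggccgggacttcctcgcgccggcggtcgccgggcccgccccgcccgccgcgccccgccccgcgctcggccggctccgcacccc
No letters are in capitals because none of the searched motifs was found. The stretches differ in base composition, with 40.4% G and C before OPRM1 and 87.1% before OPRL1, where the median over 34943 windows of RefSeq promoters was 58%. Searched on both strands were TGANTCA, the AP-1 motif, TGACGTCA, the cyclic AMP response element, and GCGTGGGCG, the EGR motif. They are in 6.59%, 1.63% and 0.721% of all windows, which are longer than the OPRL1 stretch.

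The authors' values are estimated counts, and levels are given as CPM. A cell counted as having a gene where its entry was at least 0.5. A count was seen for at least 1 of the 8 genes in 7492 cells, 17.1% (95% exact binomial interval 16.8 to 17.5%). OPRM1 was seen in 3222 cells (7.37%), OPRD1 in 857 (1.96%), OPRK1 in 931 (2.13%), OPRL1 in 1186 (2.71%), PENK in 738 (1.69%), PDYN in 100 (0.229%), POMC in 940 (2.15%) and PNOC in 441 (1.01%). At least 2 of the genes were seen together in 820 cells, and a receptor together with a precursor in 424. Such shares move with depth and rounding. With entries rounded and each cell thinned to 5000 counts, which left out 1596 shallower cells, 6.26% of cells had any of the genes. Rounding dropped entries of exactly 0.5, so the fall may not be due to depth alone. Intervals cover counting error only.

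**Figure D1:**
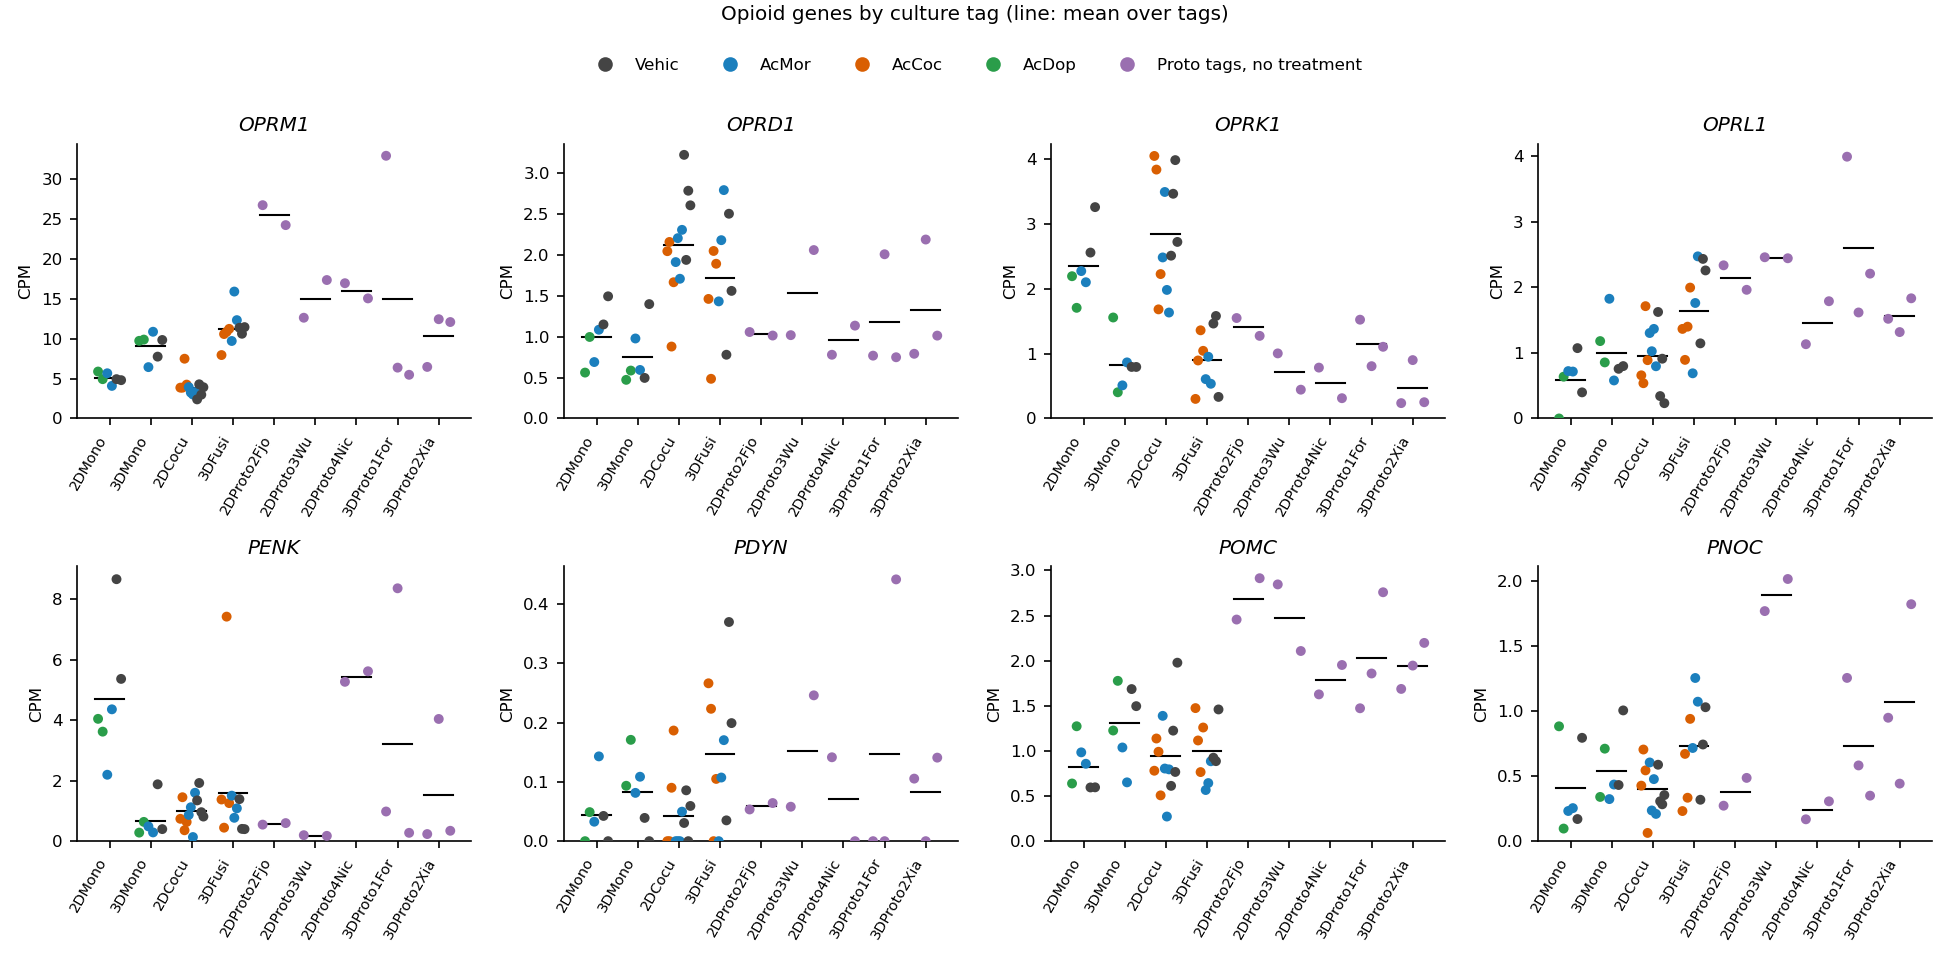
Level of each of the 8 genes (vertical axis, CPM, a separate scale per panel) in each of the 46 tags (points, coloured by treatment word), by arrangement (horizontal axis), with the mean over tags as a line. OPRM1 is lowest in 2DCocu, OPRK1 is higher in 2DMono and 2DCocu than in 3DMono and 3DFusi, and PENK is spread widely within several arrangements.

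The first question was how opioid genes differ between flat and 3-D cultures of the treated arrangements. The Proto arrangements, described further below, were not part of these comparisons. In 3DMono against 2DMono, OPRM1 was higher, and OPRK1 and PENK were lower. Counts were summed per tag and tested with edgeR's quasi-likelihood method, with the treatment word as a covariate and Benjamini-Hochberg adjustment over all genes tested. It called 8309 of 21853 genes, 38% of them (17.6% higher and 20.4% lower), so that 3 members called of the 6 tested were read against a background in which many genes differed. PDYN and PNOC had too few counts to be tested. In sums over a whole tag, fewer cells of a type and less RNA per cell cannot be told apart. Whether the tags of 2 groups overlap is given below as a description, without the share of all genes for which this holds. With so many genes called, a lack of overlap may be common, so it is not read as particular to the members.

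OPRM1 had a lowest, median and highest level of 4.09, 4.93 and 5.89 CPM in the 6 tags of 2DMono. The 6 tags of 3DMono gave 6.44, 9.80 and 10.9 CPM. All 3DMono tags were above all 2DMono tags, with means of 9.10 ± 1.65 and 5.05 ± 0.649 CPM (SD, n = 6 each). The fitted log2 fold change was 0.63 (SE 0.16, adjusted p = 0.00624, edgeR with Benjamini-Hochberg adjustment). The call was lost with Vehic tags alone, 2 against 2 (0.61, adjusted p = 0.189). Fitted changes use TMM scaling and so differ somewhat from ratios of mean CPM.

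OPRK1, whose receptor binds dynorphins, moved the other way. Its levels were 1.704, 2.23 and 3.25 CPM (lowest, median, highest) in 2DMono and 0.403, 0.793 and 1.55 CPM in 3DMono. The groups did not overlap, and the log2 fold change was -1.76 (SE 0.28, edgeR adjusted p = 0.000232).

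PENK gave 2.20, 4.21 and 8.67 CPM (lowest, median, highest) in 2DMono and 0.283, 0.444 and 1.88 CPM in 3DMono. The groups did not overlap, and the log2 fold change was -2.95 (SE 0.34, edgeR adjusted p = 9.86e-06). Much of the PENK signal sat in few cells: in the 2DMono tag Vehic 2, 1 cell held 96.3% of the PENK counts, and the tag stood at 5.37 CPM with it and at 0.199 CPM without it. With the cell holding most PENK left out of every tag, 2DMono ranged from 0.199 to 8.08 CPM and 3DMono from 0.0943 to 1.49 CPM. The groups then overlapped, and the log2 fold change was -2.78 (SE 0.60, edgeR adjusted p = 0.00260).

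**Figure D2:**
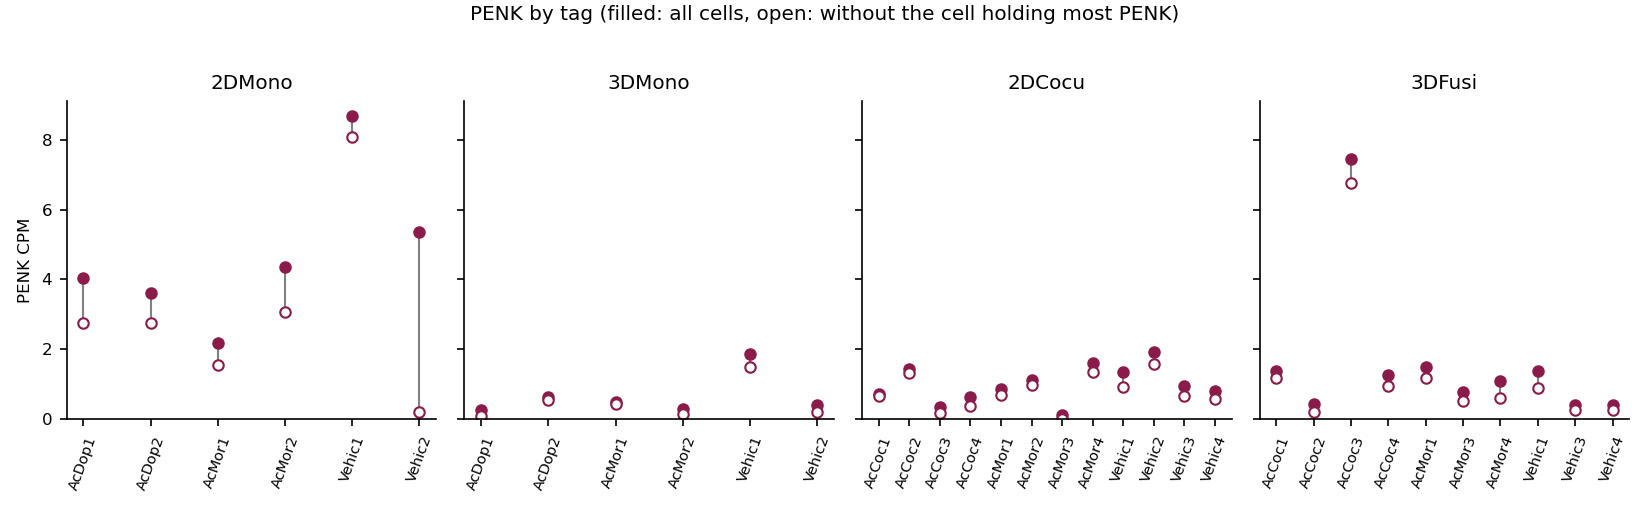
PENK level (vertical axis, CPM) in each tag (horizontal axis) of the 4 treated arrangements, with all cells (filled points) and without the 1 cell that held most PENK counts in that tag (open points), joined by a line. The tag Vehic 2 of 2DMono goes from 5.37 to 0.199 CPM, while AcCoc 3 of 3DFusi stays high, at 6.77 CPM.

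The other 3 genes tested in that pair did not pass: OPRD1 had a log2 fold change of -0.57 (edgeR adjusted p = 0.183), OPRL1 0.35 (0.553) and POMC 0.45 (0.240). PENK-AS1, a gene antisense to PENK that overlaps it by 928 bases, fell with a log2 fold change of -1.35 (edgeR adjusted p = 0.00218). Whether counting used strand is not stated, so reads of PENK and PENK-AS1 may not be separable, and the same holds for OPRD1, OPRK1, PDYN and PNOC and their antisense genes. OPRL1 shares 980 bases with LKAAEAR1 and OPRM1 92372 with IPCEF1, both on the other strand. IPCEF1 went the other way, with fitted changes of -0.72 in 3DMono against 2DMono and -0.41 in 3DFusi against 2DCocu, both called lower.

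In 3DFusi against 2DCocu, OPRM1 and OPRL1 were higher and OPRK1 was lower. The test called 10988 of 22507 genes, or 48.8% (26.1% higher and 22.7% lower), and 3 of the 6 members tested. Same-numbered 3DFusi tags deviated together (r from 0.171 to 0.687 in 9 pairs). The fit takes the 10 tags as separate, so p-values of this comparison may be too small. OPRM1 had a lowest, median and highest level of 2.39, 3.86 and 7.499 CPM in the 12 tags of 2DCocu and of 7.96, 11.1 and 15.9 CPM in the 10 of 3DFusi. The groups did not overlap. Means were 3.88 ± 1.28 and 11.2 ± 2.03 CPM (SD), and the log2 fold change was 1.44 (SE 0.15, edgeR adjusted p = 7.96e-08).

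For OPRK1, 2DCocu gave 1.63, 2.61 and 4.04 CPM (lowest, median, highest) and 3DFusi 0.301, 0.921 and 1.58 CPM, again with no overlap. Its log2 fold change was -1.73 (SE 0.25, edgeR adjusted p = 5.64e-06). OPRL1 gave 0.233, 0.900 and 1.71 CPM in 2DCocu and 0.688, 1.58 and 2.47 CPM in 3DFusi. These groups overlapped, and the log2 fold change was 0.71 (SE 0.27, edgeR adjusted p = 0.0363). Its neighbour RGS19 rose with a log2 fold change of 1.04 (edgeR adjusted p = 0.00272). The OPRL1 call did not hold in 8 of 22 fits that each left out 1 tag (adjusted p from 0.0121 to 0.0965), with called doublets removed (0.0642), with Vehic tags alone (0.155), or with 3DFusi tags of the same number summed (0.0767).

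PENK (log2 fold change 0.45, edgeR adjusted p = 0.410), OPRD1 (-0.34, 0.202) and POMC (-0.01, 0.988) did not pass in 3DFusi against 2DCocu. PDYN and PNOC were not tested there. PDYN-AS1, which covers all 15529 bases of PDYN on the other strand, rose with a log2 fold change of 1.18 (edgeR adjusted p = 0.00761). PDYN itself stayed at or below 0.370 CPM in every 3DFusi tag and 0.187 CPM in every 2DCocu tag.

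**Figure D3:**
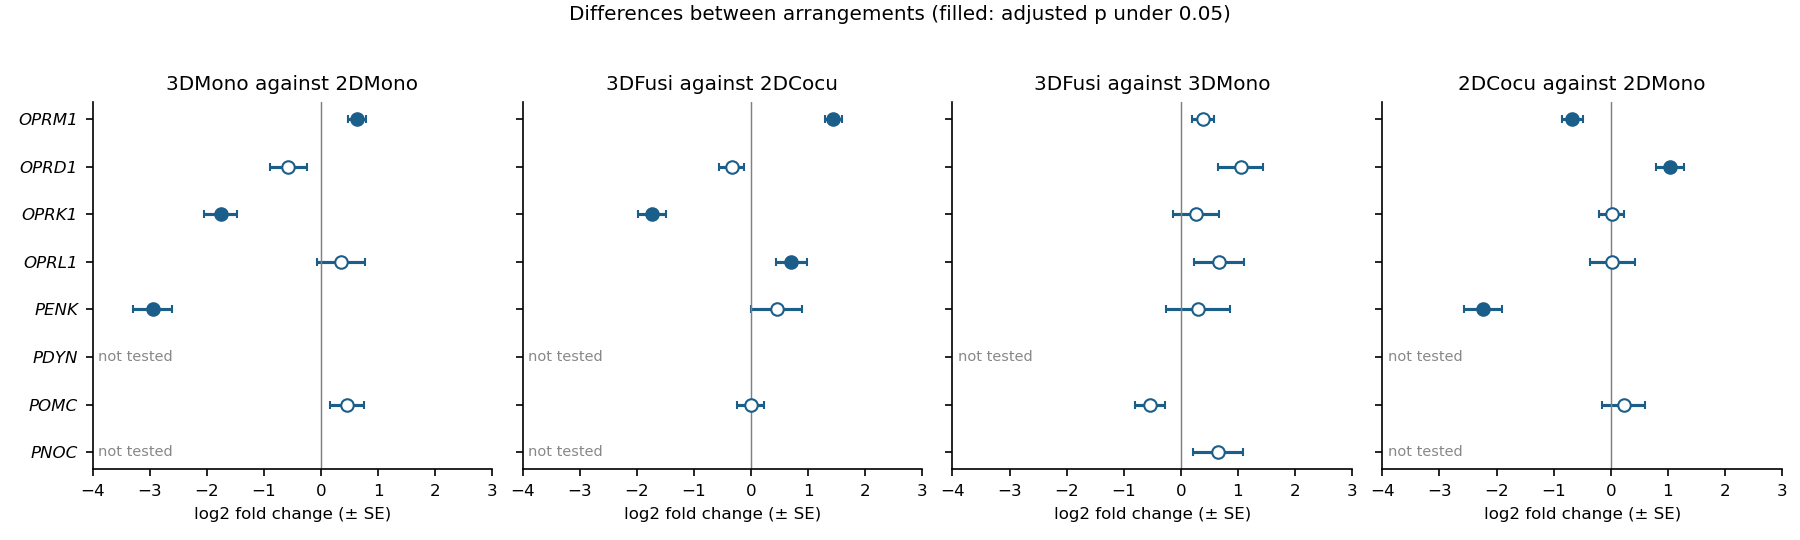
Log2 fold change of each gene (horizontal axis, ± SE) in the 4 comparisons of arrangements, filled where the edgeR adjusted p was under 0.05. OPRM1 lies to the right and OPRK1 to the left in both comparisons of 3-D with 2-D cultures, and PENK lies at -2.95 in the Mono pair and at 0.45 in the other. The Proto arrangements are not among these comparisons.

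The change from 2-D to 3-D was set against itself in the 2 pairs, in 1 fit over the AcMor and Vehic tags, where 2171 of 24684 genes differed (8.8%, of which 5.03% higher and 3.76% lower, in percent of all). The rise of OPRM1 was larger from 2DCocu to 3DFusi than from 2DMono to 3DMono by 1.07 on the log2 scale (SE 0.27, edgeR adjusted p = 0.0140). The PENK change differed by 2.57 (SE 0.65, edgeR adjusted p = 0.0159), but with the cell holding most PENK left out of each tag by 2.13 (adjusted p = 0.178). The other 5 members tested did not pass.

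Arrangements of the same format were compared over AcMor and Vehic tags, which also enter the comparisons above. In 2DCocu against 2DMono, 6415 of 21434 genes were called, 29.9% (14.6% higher and 15.3% lower), and 3 of the 6 members tested. PENK was lower in 2DCocu, with a mean of 1.10 against 5.15 CPM, and the fitted change was -2.23 in log2 (SE 0.33, adjusted p = 6.57e-05 by edgeR). Here too 1 cell held most of the PENK counts of Vehic 2 in 2DMono, and without the cell with most PENK in each tag the change was -2.11 (SE 0.59, adjusted p = 0.0173 by edgeR). OPRD1 was higher, with 2.33 against 1.10 CPM, no overlap of tags and a log2 fold change of 1.04 (edgeR adjusted p = 0.00343). OPRM1 was lower by a log2 fold change of -0.67 (edgeR adjusted p = 0.00926), and that call was lost without AcMor 1 or without Vehic 1 of 2DMono, where the adjusted p reached 0.0667. In 3DFusi against 3DMono, 353 of 23860 genes were called, 1.48% (1.08% higher and 0.398% lower), and none of the 7 members tested. OPRD1 had a log2 fold change of 1.05 there (unadjusted p = 0.0218, edgeR adjusted p = 0.193).

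Other genes of the pathway were taken from 3 lists. Of 31 genes of opioid signalling tested in 3DMono against 2DMono, 7 were higher and 6 lower (list median 0.08, all genes 0.03, log2). The potassium channel gene KCNJ6 fell by 3.33 on the log2 scale, the regulator RGS4 by 2.93 and the adenylyl cyclase ADCY8 by 2.65. Of 12 genes of peptide processing, 1 was higher and 3 lower (median -0.21): the convertase PCSK1 fell by 1.98, the carboxypeptidase CPE by 1.24 and the granule protein CHGA by 1.13. Of 7 peptidases tested that break such peptides down, 1 was higher and 4 lower (median -0.44), among them MME, or neprilysin, with -3.66, ECE1 with -1.22 and ENPEP with -1.12.

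In 3DFusi against 2DCocu, 6 of 32 signalling genes were higher and 9 lower (median -0.06, all genes 0.05). KCNJ6 fell by 2.33 and ADCY8 by 1.90, while RGS4 rose by 1.85. Among 12 processing genes, 5 were higher and 4 lower (median 0.37), with the granule genes CHGB at 2.37, SCG2 at 1.19 and SCG3 at 0.95. Among 9 peptidases, 1 was higher and 4 lower (median -0.22), with ENPEP at -1.26, ECE1 at -1.17 and LNPEP at 0.46. These counts stand beside 38% and 48.8% of all genes called in the same comparisons. In 2DCocu against 2DMono 29.9% of all genes were called (14.6% higher and 15.3% lower). There 7 of 31 signalling genes were higher and 3 lower, and 2 of 12 processing genes higher and 5 lower. Of 8 peptidases 3 were higher and 1 lower. In 3DFusi against 3DMono 1.48% of all genes were called (1.08% higher and 0.398% lower). There 1 of 32 signalling genes was higher and 1 lower, 1 of 12 processing genes was higher, and edgeR called 0 of 9 peptidases.

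The next question was whether any of the 8 genes differed with a treatment word within an arrangement. No member was called: of 42 tests of members over 8 contrasts with Vehic, edgeR called 0, and 3 had an unadjusted p under 0.05. In 6 of the 8 contrasts edgeR called 0 genes in all (0%), with 177 to 1926 at an unadjusted p under 0.05 and 0 to 178 called by DESeq2. In 3DFusi, where same-numbered tags deviated together, 392 (AcCoc) and 177 (AcMor) of 23676 genes had such a p. Both are a smaller share than the 0.05 that chance alone would give, so a lack of calls there says little. With the tag number as a block it was 1125 of 26336 genes in each of these 2 contrasts. AcCoc in 2DCocu called 1283 of 21033 genes (6.1%, with 3.6% higher and 2.5% lower), and AcMor in 2DCocu 203 (0.965%, with 0.68% higher and 0.285% lower). DESeq2 and the fit with the tag number as a block also called 0 members in each contrast. The AcMor and AcCoc or AcDop contrasts of an arrangement share their Vehic tags.

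**Figure D4:**
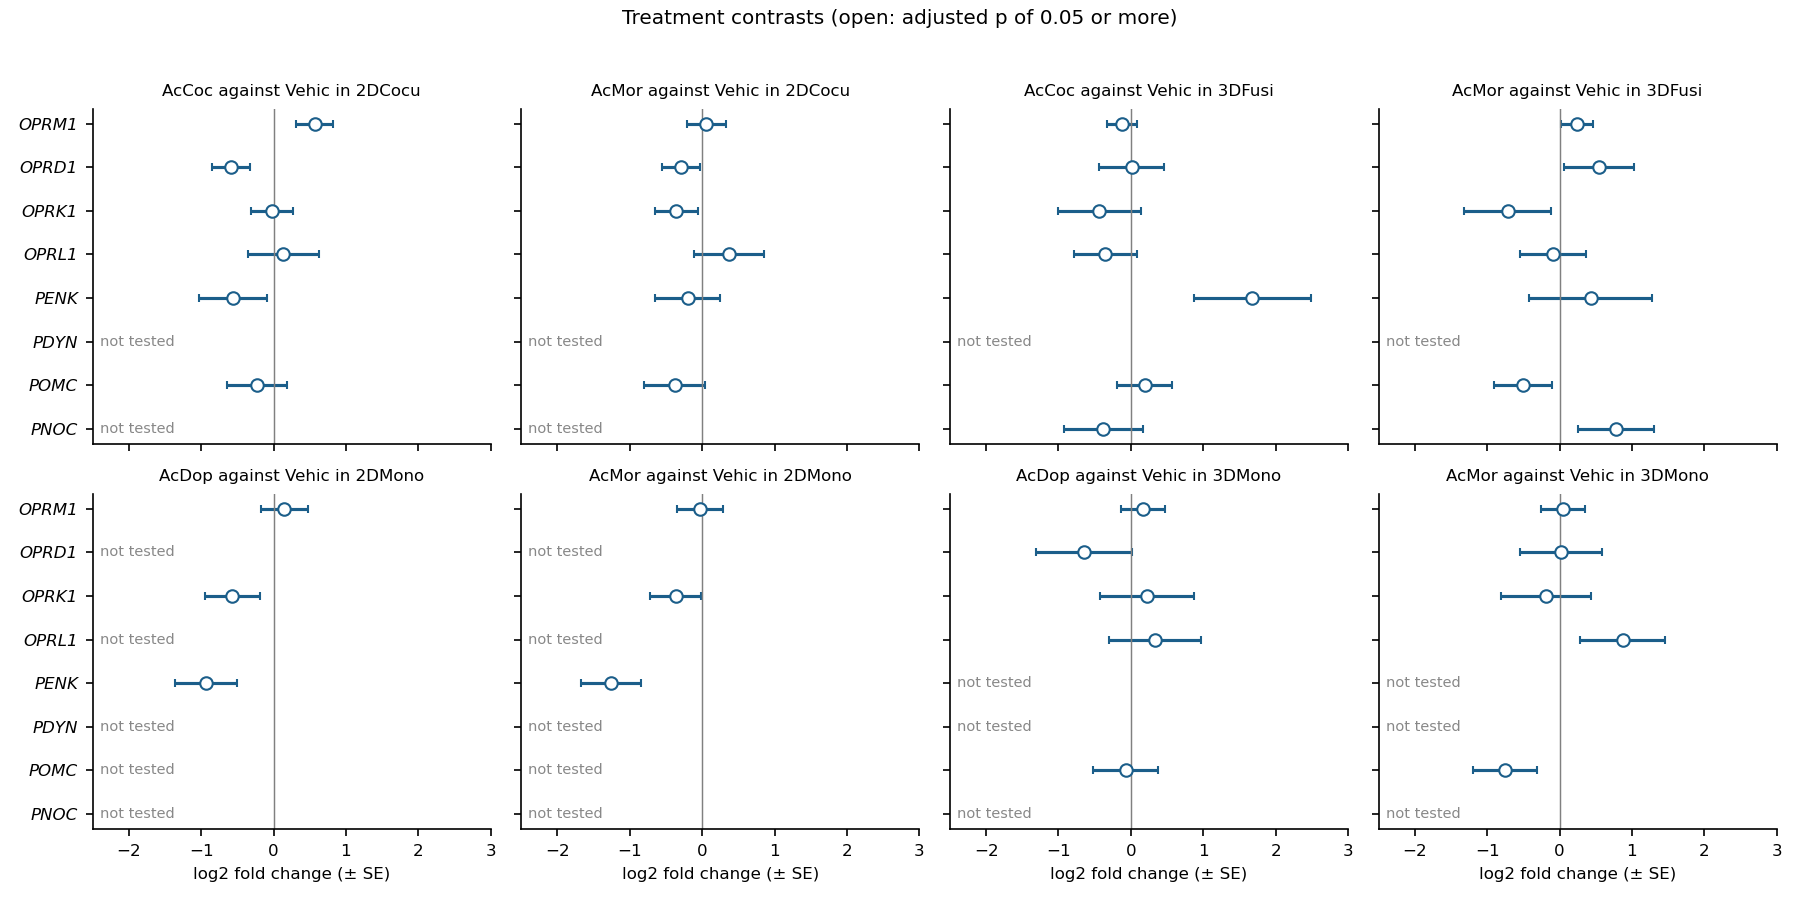
Log2 fold change (horizontal axis, ± SE) of each gene against Vehic in the 8 contrasts. No point is filled, since no adjusted p was under 0.05, and the widest intervals belong to PENK in 3DFusi.

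The mu receptor gene OPRM1 stood at 3.86, 3.87, 4.25 and 7.499 CPM in the AcCoc tags of 2DCocu and at 2.39, 2.98, 3.92 and 4.29 CPM in its Vehic tags. These groups overlap, with 1 AcCoc tag far above the rest, and the log2 fold change was 0.57 (SE 0.26, unadjusted p = 0.0407, edgeR adjusted p = 0.204). OPRD1 in the same tags gave -0.59 (SE 0.26, unadjusted p = 0.0396, edgeR adjusted p = 0.201). For AcMor, the word shared by all 4 arrangements, OPRM1 had log2 fold changes of 0.06 (SE 0.27) in 2DCocu, 0.24 (SE 0.22) in 3DFusi, -0.03 (SE 0.32) in 2DMono and 0.04 (SE 0.30) in 3DMono. Each lay within about 1 SE of 0.

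PENK was at 2.20 and 4.36 CPM in the AcMor tags of 2DMono and at 5.37 and 8.67 CPM in its Vehic tags, of which the 5.37 rests on 1 cell. With 2 tags each, a lack of overlap says little, and the log2 fold change was -1.26 (SE 0.42, unadjusted p = 0.0145, edgeR adjusted p = 0.776). In 3DFusi the AcCoc tags gave 0.446, 1.26, 1.38 and 7.43 CPM and the Vehic tags 0.398, 0.406 and 1.39 CPM. The log2 fold change of 1.68 (edgeR: SE 0.80, adjusted p = 1.00) thus came with 1 tag that stands apart. Effects of the same word in 2-D and 3-D were compared in 28 tests of members, of which edgeR called 0. Those 4 interaction terms called 1 (0.00426%), 0, 0 and 0 genes of the table.

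The pathway lists were also read in AcCoc against Vehic in 2DCocu, where 6.1% of all genes were called. Of 12 processing genes 4 were higher and none lower. Among them were SCG3 at 1.33, CHGA at 1.27 and CHGB at 0.80 on the log2 scale (edgeR adjusted p of 0.00228, 0.0144 and 0.0254). These are sums over whole tags, in which cell mix and level per cell cannot be told apart. Of 30 signalling genes 2 were higher and 1 lower: KCNJ6 at 0.80, the calcium channel gene CACNA1B at 0.61 and RGS9, a regulator of striatal G protein signalling, at -0.92. Of 8 peptidases ECE1 alone was called, at -0.56. In AcMor against Vehic in 2DCocu, with 0.965% of all genes called, ADCY8 (0.57) and SCG3 (1.09) were higher. A single fit over all 4 treated arrangements called 0 genes in either contrast.

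The 5 Proto arrangements were compared in 1 fit of 25572 genes. OPRM1 was at 24.3 and 26.8 CPM in 2DProto2Fjo, 12.6 and 17.4 in 2DProto3Wu, and 15.1 and 17.0 in 2DProto4Nic. It was at 5.48, 6.38 and 33.0 CPM in 3DProto1For and 6.47, 12.1 and 12.5 in 3DProto2Xia. The 2DProto2Fjo tags were above those of the other 2-D protocols, but the log2 fold change of 0.62 did not pass (SE 0.57, edgeR adjusted p = 0.658). In 3DProto1For the tags differ from each other more than any of the 2-D protocols do. All 2-D Proto tags were at 12.6 CPM or above. The 3-D Proto tags were at 12.5 CPM or below, apart from the one at 33.0 CPM. The higher OPRM1 level of 3DMono and 3DFusi than of their 2-D counterparts was thus not repeated here. OPRK1 levels of 2-D and 3-D Proto tags overlapped. No protocol word is shared by 2-D and 3-D tags, so format and protocol cannot be told apart. Proto tags of 3-D and 2-D were not tested against each other.

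PNOC was at 1.77 and 2.02 CPM in 2DProto3Wu and between 0.168 and 0.487 CPM in the 4 tags of the other 2-D protocols. Its log2 fold change was 2.42 (SE 0.50, edgeR adjusted p = 0.0103) in a comparison that called 11.7% of genes (6.55% higher and 5.12% lower) and 1 of the members. The call was lost when either 2DProto3Wu tag was left out (adjusted p up to 0.106). On average over the 2DProto3Wu tags, 65.7% of cells fell in cluster 11 and 28.2% in cluster 26, which are described below.

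PENK was at 5.27 and 5.62 CPM in 2DProto4Nic, at 0.547 and 0.598 in 2DProto2Fjo and at 0.176 and 0.198 in 2DProto3Wu. The log2 fold change of 2DProto4Nic was 4.35 (SE 1.12, edgeR adjusted p = 0.0293), in a comparison that called 15.9% of genes (8.73% higher and 7.18% lower). It lost its call in 6 of 12 fits without 1 tag, where the adjusted p reached 0.160. The mesenchymal-like cluster 20 made up 37.3% of the cells of a 2DProto4Nic tag on average and held 98.2% of the PENK counts of that arrangement. In 2DProto4Nic 4 of 10 peptidases were higher and 0 lower, 2 of 12 processing genes higher and 4 lower, and 4 of 32 signalling genes higher and 3 lower. In 2DProto2Fjo the same lists gave 0 and 1, 0 and 1, and 4 and 0 higher and lower. In 2DProto3Wu, where 11.7% of all genes were called, they gave 0 and 1, 2 and 1, and 2 and 4. For 2DProto2Fjo the test called 4.94% of genes (3.18% higher and 1.75% lower) and 0 members (all adjusted p above 0.05), and for 3DProto1For against 3DProto2Xia edgeR called 0% of genes, with 3509 at an unadjusted p under 0.05 and 115 called by DESeq2.

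Cells were grouped into 36 clusters from 2000 variable genes. A cluster's level is given as a description. A class such as "GABAergic neuron-like" was named from marker genes, and 14 clusters with 16667 cells (38.1%) stayed unnamed. OPRM1 was highest in cluster 14, at 45.0 CPM pooled over cells, with a count in 19.5% of 1236 cells. Its leading genes include RELN and LHX1, and 38.1% of its cells came from 2DProto2Fjo. Next were cluster 21, of cycling cells (37.7 CPM), cluster 6, led by RIT2, GLRA3 and NKX2-2 (33.8 CPM), the excitatory neuron-like cluster 23 (28.6 CPM, 31.6% of its cells) and the GABAergic neuron-like cluster 2 (26.5 CPM). For background, OPRM1 was seen in 2.94% of 374 muscle-like cells, which had a median of 15224 counts per cell against 15822 in cluster 14.

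**Figure D5:**
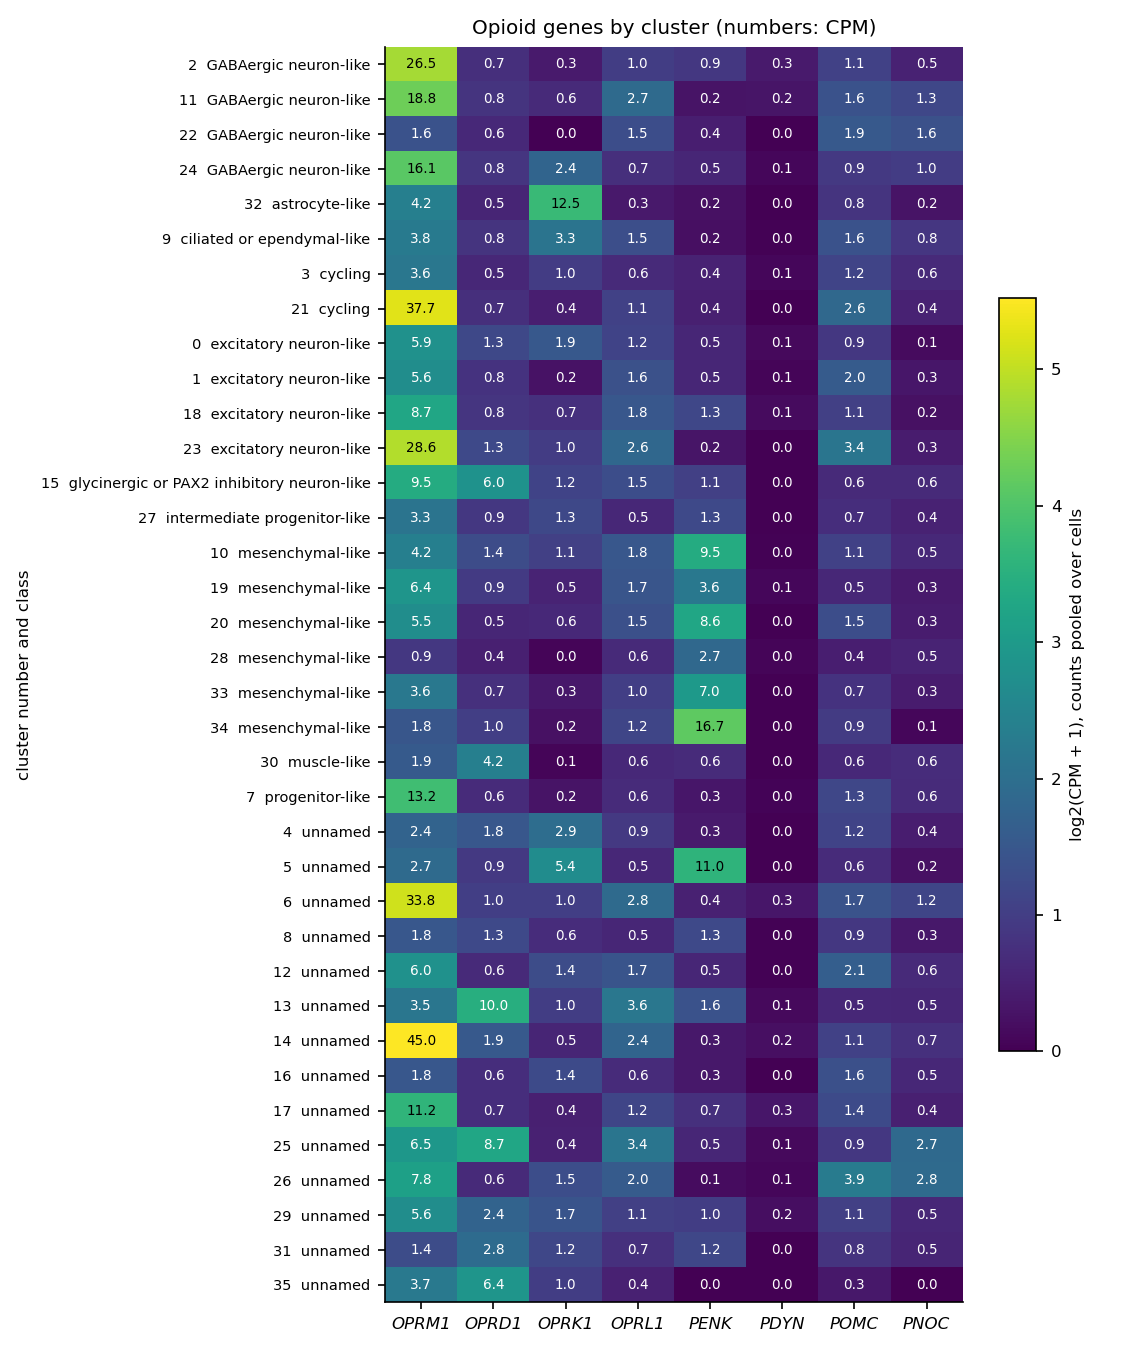
Pooled level of the 8 genes (columns) in the 36 clusters (rows, with number and class), coloured by log2(CPM + 1) and printed as CPM. OPRM1 is high in several neuronal clusters and in the cycling cluster 21, PENK in mesenchymal-like clusters and cluster 5, OPRK1 in the astrocyte-like cluster 32, and OPRD1 in clusters 13, 25, 35 and 15.

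Cluster 2 took 14.04% of the cells of a 3DMono tag on average and 15.9% in 3DFusi, against 1.78% in 2DMono and 0.0529% in 2DCocu. It held 22.1% of the OPRM1 counts of 3DFusi and 16.9% of those of 3DMono. The GABAergic neuron-like class as a whole took 17.1% of cells in 3DFusi and 0.919% in 2DCocu, but 14.6% in 3DMono and 14.5% in 2DMono, where it lay mostly in cluster 24. The 8 GABAergic markers summed to 52.0 to 470 CPM in 3DFusi tags and to 34.3 to 87.1 CPM in 2DCocu tags. They summed to 61.5 to 481 CPM in 3DMono and 76.0 to 208 CPM in 2DMono. The part of these cells in the OPRM1 differences was not tested beyond the fits within classes that follow.

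Unnamed clusters, among them 5, 6, 13, 14 and 25, were left out of the fits within classes. Within classes OPRM1 was the one member with enough counts, and 27 fits in 7 classes gave 21 tests of it. The number called was 0, and 0 had an unadjusted p under 0.05, with log2 fold changes from -0.98 to 1.01. In excitatory neuron-like cells OPRM1 differed by -0.02 (SE 0.32, edgeR adjusted p = 0.974) between 3DFusi and 2DCocu, where 40.2% of genes were called. Between 3DMono and 2DMono it differed by -0.08 (SE 0.24, adjusted p = 0.832, 35% called). In GABAergic neuron-like cells of 3DMono against 2DMono it differed by 0.16 (SE 0.36, edgeR adjusted p = 0.799, 21.8% called).

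Most excitatory neuron-like cells lay in cluster 0 in 2DCocu (81.0%) and 2DMono (69.95%) and in cluster 1 in 3DFusi (94.2%) and 3DMono (99.3%). With coarser clusters 3 tests within classes were called. OPRM1 then differed by 1.59 in excitatory neuron-like cells of 3DFusi against 2DCocu (edgeR adjusted p = 0.00268), over a changed set of cells. That class then held 9520 cells in place of 7521, with the RELN-led cells of cluster 14 among those added. Which of the added cells moved the value was not tested. In progenitor-like cells of 3DMono against 2DMono OPRM1 differed by 2.11 (edgeR adjusted p = 2.79e-05) and PENK by -5.84 (adjusted p = 2.58e-07). That coarser progenitor-like class joins a cluster led by CXCL14 and CCN2, mainly of 2-D cultures, with the cluster of 1875 cells that alone made up the class before, so both progenitor values compare cells of different clusters. The result within classes therefore depends on where class borders are drawn.

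OPRM1 also varied between arrangements within a class. In GABAergic neuron-like cells it was at 135 ± 18.1 CPM (SD, n = 2 tags, 76 cells) in 2DProto2Fjo, 28.2 ± 17.9 (n = 10) in 3DFusi and 18.3 ± 3.79 (n = 2, 1502 cells) in 2DProto3Wu. It was at 13.7 ± 6.17 (n = 6) in 2DMono, 13.05 ± 6.86 (n = 6) in 3DMono and 1.55 ± 0.413 (n = 2) in 3DProto2Xia. Most of these cells lay in cluster 2 in 3DFusi and 3DMono, cluster 24 in 2DMono, cluster 11 in 2DProto3Wu and cluster 22 in 3DProto2Xia, and those of 2DProto2Fjo were spread mainly over clusters 2 and 11, so the highest and lowest values compare different clusters. In cycling cells it was at 51.9 ± 5.18 CPM (n = 2) in 2DProto4Nic and between 2.17 and 4.59 on average in the other arrangements with enough such cells. The 2DProto4Nic cells lay mainly in cluster 21, and those of 2DMono, 3DMono and 3DFusi in cluster 3 (96.8%, 99.7% and 99.2%), so these values also differ by cluster. Over all tags no pair of classes next to each other in mean level differed by more than the larger of their SDs, for any of the 8 genes. These SDs mix arrangements and clusters, some pairs had no tag in common, and classes further apart in the order were not compared. The comparison therefore cannot show that classes are alike.

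Pooled over cells, OPRK1 was highest in the astrocyte-like cluster 32, at 12.5 CPM with a count in 10.4% of 327 cells, and in cluster 5, at 5.44 CPM in 1977 cells. Over tags with at least 20 such cells the astrocyte-like mean was lower, at 4.11 ± 2.93 CPM (SD, n = 3, highest 7.27), and the ciliated or ependymal-like mean was 5.78 ± 9.93 CPM (n = 16), so the order depends on how cells are weighted. Both are clusters of 2-D cultures: cluster 32 took 4.42% of cells in 2DMono, 1.00% in 2DCocu and 0% in 3DMono and 3DFusi, and cluster 5 took 27.1 ± 11.7%, 7.18 ± 2.12%, 0.0147% and 0.0113% in that order. Cluster 5, led by CXCL14, CCN2, EDN1 and TAGLN, held 56.1% of the OPRK1 counts of 2DMono and 43.7% of those of 2DCocu. The part of cluster 5 in the lower OPRK1 level of 3DMono and 3DFusi was not tested.

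Pooled over cells, PENK stood highest in the mesenchymal-like cluster 34 (16.7 CPM), in cluster 5 (11.04 CPM) and in the mesenchymal-like clusters 10 (9.54 CPM) and 20 (8.63 CPM). Cluster 5 had 579 PENK counts in 1213 cells of 2DMono and 53.6 in 758 cells of 2DCocu, so its place depends on how arrangements are weighted. In 3DProto1For, cluster 34 had 40.4 PENK counts in 84 cells and cluster 10 had 139 in 543 cells. The tags of that arrangement stood at 0.276, 0.982 and 8.37 CPM (lowest, median, highest). The places of clusters 34 and 10 may therefore also depend on how tags are weighted. Cluster 5 held 34.1% of all PENK counts and 88.2% of those in 2DMono. Of the 35 cells with at least 10 PENK counts, 18 were in cluster 5 and 16 in mesenchymal-like clusters. Of the 1855 PENK counts, 50% came from 82 cells. A count was seen in 6.71% of mesenchymal-like cells and in 0.577% of GABAergic neuron-like cells, with median totals of 16968 and 10020 counts per cell. The 8 mesenchymal markers summed to 591 to 1601 CPM in 2DMono, 166 to 582 in 3DMono, 504 to 1806 in 2DCocu and 214 to 4353 in 3DFusi.

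Pooled over cells, OPRD1 was highest in cluster 13, at 10.01 CPM, in cluster 25, at 8.65 CPM with a count in 13.2% of its 719 cells, in cluster 35, at 6.41 CPM, and in the glycinergic or PAX2 inhibitory neuron-like cluster 15, at 6.04 CPM. In cluster 13, 1 cell held 42.4 of the 192 OPRD1 counts, so its place above cluster 25 rests on that cell. In muscle-like cells it stood at 4.23 CPM, seen in 7.22% of 374 cells. Cluster 15 took 11.2% of cells in 2DCocu and 0.0833% in 2DMono, in which OPRD1 was lower. It held 25.5% of the OPRD1 counts of 2DCocu, cluster 4 held 16.2% and cluster 29 held 12.5%, and their part in that difference was not tested. OPRL1 was spread more evenly, from 0.29 CPM in the astrocyte-like class to 3.59 CPM in cluster 13.

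POMC reached 3.92 CPM in cluster 26 and 3.42 CPM in cluster 23, and no cell held more than 3 POMC counts. The 8 markers of pituitary corticotrophs, cells known for making POMC, summed to 8.22 to 14.4 CPM in 2DMono and 12.6 to 34.0 in 3DFusi, with 5 and 2 of them below 1 CPM in every tag. PNOC reached 2.75 CPM in cluster 26, which came mostly from 2DProto3Wu, and 2.68 CPM in cluster 25. PDYN had 65.3 counts over all cells and stood at 0.316 CPM in its highest cluster, the GABAergic neuron-like cluster 2.

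The genes whose levels over the 46 tags were most like those of each member were ranked by Pearson's r of log2(CPM + 1) among 20198 genes, as a description. For OPRM1 they were GDF11 (0.85), SEZ6L2 (0.82) and STMN4 (0.79). OPRK1 was closest to CHRM3 (0.85), TPST2 (0.85) and RASSF9 (0.84), and OPRL1 to ENSG00000272104 (0.88), HCN4 (0.83) and TMEM151A (0.82). PENK was closest to IGFBP3 (0.81), ACTA2 (0.80) and DKK2 (0.77), OPRD1 to CD109 (0.81) and ENSG00000258691 (0.77), and POMC to CLEC20A (0.76), SATL1 (0.74) and ITGA2B (0.73). Among the members, OPRM1 had r of -0.61 with OPRK1, 0.58 with OPRL1 and 0.50 with POMC. The tags share arrangements and sequencing, and no p-value is given.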

How the data were processed

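Single-cell RNA was measured in 46 culture tags of the H1 line. The authors deposited 1 matrix of estimated counts (60286 genes, 43693 cells), in which 54.3% of the entries above 0 are whole. Salmon 1.7.0, alevin, Seurat 4.1.1 and hg38 are named per the submitters' processing notes, and neither annotation nor strand is given in the sources used here. All columns were used. The members and gene lists were chosen with earlier results of these data known. Gene positions are from GENCODE on GRCh38 and sequences from RefSeq.

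Counts were summed per tag, rounded and tested with edgeR 4.0.16 in R 4.3.3 (filterByExpr, TMM, robust quasi-likelihood fit, Benjamini-Hochberg adjustment over all genes, threshold 0.05), with limma 3.58.1. DESeq2 1.42.0, other scaling, no filter, doublet removal, Vehic tags alone, a replicate block and leaving out each tag were alternatives. The tests were checked on simulated data. SE is the log2 fold change divided by the square root of F. No duplicate tags were found: over 45 pairs of tags of a group the lowest chi-square per degree of freedom was 5.43.

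Cells were clustered with scanpy 1.11.5 and leidenalg 0.10.2 in Python 3.11.15 (2000 variable genes, 30 components, 20 neighbours, resolution 0.8, or 0.4 as an alternative) and named from at least 3 markers. Tests within a class needed 20 cells per tag.

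Same-numbered 3DFusi tags deviated together (r from 0.171 to 0.687 in 9 pairs), and those of 2DCocu did not (-0.459 to 0.139 in 12 pairs). Same-numbered tags gave r from -0.131 to 0.262 in 2DMono and from 0.0969 to 0.310 in 3DMono. With 2 tags per group, pairs with different numbers mirror these values. Whether a number marks a shared batch there could therefore not be told.

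Named were all 8 members, of each list the 3 called genes with the largest change in each comparison of 3-D with 2-D or treatment contrast with calls, and for each member with a mean of at least 1 CPM the 3 genes most like it, of which 1 is not reported here. RGS19, PENK-AS1, PDYN-AS1 and IPCEF1 were added as neighbours of members.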

Additional observations from a re-analysis of the deposited data

Results flagged for a closer look

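Single samples stood apart in 7 of 64 groups of 4 to 10 samples by Dixon's test. Chance gives about 1 in 20 for independent groups of normal values. Groups here share tags, and counts near 0 are not normal, so an excess over chance cannot be read from this. OPRM1 was at 7.499 CPM in AcCoc 3 of 2DCocu, against 4.25 in the next AcCoc tag. PENK was at 7.43 CPM in AcCoc 3 of 3DFusi, against 1.38 in the next AcCoc tag and 1.51 in the next 3DFusi tag of any treatment. PENK was at 1.88 CPM in Vehic 1 of 3DMono, against 0.638 in the next 3DMono tag. PDYN was at 0.0497 CPM in AcMor 4 of 2DCocu, against 0, and at 0.143 CPM in AcMor 2 of 2DMono, against 0.0490. Each of these PDYN values rests on 1 count. Over the 8 sublibraries, OPRD1 was at 1.92 CPM in sublibrary 3, against 1.48 in the next.

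The 3-D minus 2-D difference of OPRM1 was larger in the Fusi and Cocu pair than in the Mono pair by 1.07 on the log2 scale, and that of PENK by 2.57, by the edgeR test of the difference itself. The PENK call did not hold without the cell with most PENK in each tag.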

How the results depend on the processing

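The count of members called was within 1.5 times the reported one in all settings run, apart from these. For 2DProto3Wu it was 2 with DESeq2 in place of 1, as PENK was also called (log2 fold change -3.53, adjusted p = 0.0234), and 0 to 1 when each tag was left out. For 2DProto4Nic it was 0 in place of 1 with no filter on low counts and 0 to 1 when each tag was left out. For the difference between pairs it was 1 in place of 2 without the cell with most PENK in each tag, a setting chosen after seeing the data, as was the summing of 3DFusi tags. Within classes it was 3 in place of 0 at resolution 0.4. The share of cells with any member, 17.1%, was 20.3% with any entry above 0, 6.26% with thinned cells and 16.6% without doublets. Of the members called by tag, none reversed in the settings run. Within classes, where none was called, signs did change at resolution 0.4: OPRM1 in excitatory neuron-like cells went from -0.02 to 1.59 in 3DFusi against 2DCocu and from 0.55 to -0.38 for AcCoc in 3DFusi, among others. The causes were not tested.

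Leaving out each tag kept 2 to 3 members called in 3DFusi against 2DCocu and in 2DCocu against 2DMono. With Vehic tags alone, OPRM1 in 3DMono against 2DMono was at 0.61 (edgeR adjusted p = 0.189), with fewer tags tested. With the replicate block, 0 members were called in all 8 treatment contrasts, and the genes called by AcCoc and AcMor in 2DCocu were 922 and 43 in place of 1283 and 203, and by AcMor in 3DMono 38 in place of 0.

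Counts over all genes moved more. DESeq2 called 2032 and 723 genes for AcCoc and AcMor in 2DCocu, 1567 in 3DFusi against 3DMono, and 2000 in place of 1262 for 2DProto2Fjo. With no filter, 3DFusi against 3DMono gave 629, AcMor in 2DCocu 391, AcDop and AcMor in 2DMono 38 and 184, and in 3DMono 145 and 740. With Vehic tags alone, 3DMono against 2DMono gave 3246 and 3DFusi against 2DCocu 6024. One fit over all 4 treated arrangements called 0 genes for AcCoc and AcMor in 2DCocu, 3 for AcCoc in 3DFusi and 2 for AcDop in 3DMono. Low counts limit PDYN and PNOC most, which were not tested in either comparison of 3-D with 2-D.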
